A study of Rattus norvegicus with 8 samples.

Results

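The genes described here serve glucose breakdown, its reverse pathway gluconeogenesis and the cellular response to low oxygen in macrophages sorted from the rat peritoneal cavity. The set held 43 gene symbols, chosen by pathway and with earlier results of the same comparison in view, and all 43 were among the 23487 genes of the table. Of these, 30 act in glucose and lactate metabolism and 13 in oxygen sensing and the hypoxia response. A filter on low counts left 38 members among 12124 tested genes, and the other 5 (Slc2a3, Fbp2, Eno2, Ldhb and Adm) were too low to test.

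Both groups were Wistar rats aged 8 weeks, of female sex by the study's methods, that received an intraperitoneal injection of 2 mg of multi-walled carbon nanotubes. The 4 CNT-7 rats (numbers 3, 5, 10 and 11) received MWCNT-XNRI-7, a needle-like nanotube that causes mesothelioma in rats, and the 4 CNT-T rats (numbers 1, 2, 12 and 13) received a tangled nanotube that does not. Peritoneal macrophages were sorted by flow cytometry on day 15 and their mRNA was sequenced. Untreated rats were not analysed here, so each difference is one between the particles, and neither group stands for a resting macrophage. The count totals ran from 27195157 to 33732981 per rat, and 3 counts were worth 0.0887 to 0.109 CPM (counts per 1000000 of the scaled library total), the unit of every level below. Levels are not divided by transcript length, so they compare rats and not genes.

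Glycolysis splits glucose into pyruvate in the cytosol, and lactate dehydrogenase turns pyruvate into lactate when it does not enter the mitochondria. The hypoxia-inducible factors are pairs of proteins whose alpha subunit is destroyed when prolyl hydroxylases mark it in the presence of oxygen, and the stable pair binds short DNA motifs and raises genes for glucose uptake, glycolysis, angiogenesis and mitophagy. In macrophages the same programme is also known to be switched on by inflammatory stimuli at normal oxygen.

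Of the 38 members tested, 24 were higher in CNT-7 at an adjusted p under 0.10 (edgeR's quasi-likelihood test, Benjamini-Hochberg over all tested genes), 0 were lower and 14 passed in neither direction. Among all tested genes 13.9% were higher, 14.0% were lower and 27.9% were called in either direction. Because the members were chosen with this contrast known, their count is a description. The 0 lower calls went with 0 members lower at an unadjusted p under 0.05 and 0 lower in DESeq2, which called 25 members higher. The median log2 fold change was 0.45 over the tested members and 0.01 over all tested genes. In 18 members every CNT-7 rat lay above every CNT-T rat and in 0 the reverse held, where 24.9% of all tested genes had groups that did not overlap. A call with at least a 2-fold difference was made for 9 members, and for 8.30% of all tested genes.

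**Figure D1:**
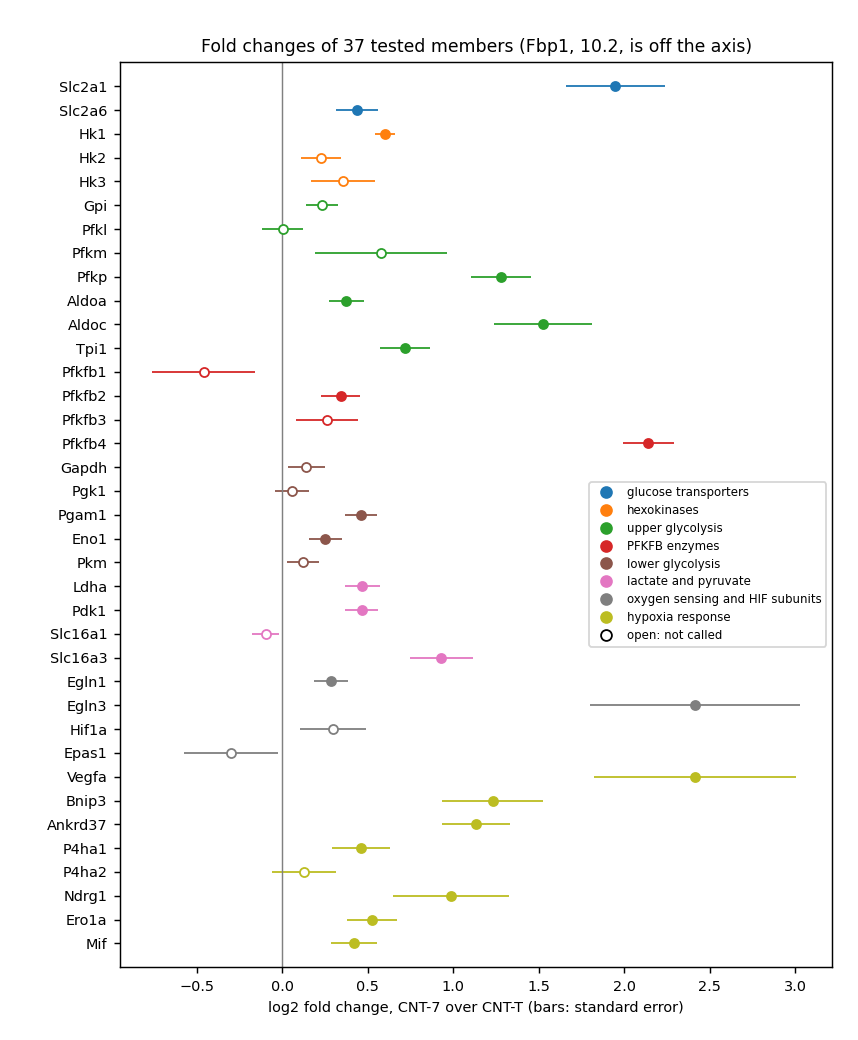
Log2 fold change, CNT-7 against CNT-T (x axis), for the tested members in the order of their roles, with bars of 1 standard error, filled points for members called at an adjusted p under 0.10 and open points for the others. Fbp1, with a fitted value of 10.20 that depends on the prior count, lies beyond the axis. Pfkfb4, Egln3 and Vegfa lie above 2, while Pfkl, Pgk1 and Slc16a1 lie near 0.

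The promoters of 38 of the 43 members were found by symbol in RefSeq's rat assembly GRCr8, each from 250 bases before to 50 bases after the gene's start. The table had none for Slc2a3, Fbp2, Pgk1, Ndrg1 and Ero1a. The core letters of the element that hypoxia-inducible factors bind were searched on both strands, in the form with A as its first base (ACGTG) and in the form with G as its first base (GCGTG). The 6 promoters below are examples chosen after the matches were counted. Ankrd37 and Bnip3 of the hypoxia response, Ldha and Slc2a1, all called members, show windows with several matches. Fbp1 and Pfkfb4, the members with the smallest adjusted p, show windows with 1 and with none. The windows of Egln3 and Vegfa, the members with the largest fitted differences after Fbp1, also held none and are not printed. Capitals mark a match, which on the opposite strand reads CACGT for the first form or, for the other form, CACGC. The palindrome CACGTG holds the first form on both strands and counts as 2 matches.
Ankrd37 (chr16:53001257-53001556, plus strand): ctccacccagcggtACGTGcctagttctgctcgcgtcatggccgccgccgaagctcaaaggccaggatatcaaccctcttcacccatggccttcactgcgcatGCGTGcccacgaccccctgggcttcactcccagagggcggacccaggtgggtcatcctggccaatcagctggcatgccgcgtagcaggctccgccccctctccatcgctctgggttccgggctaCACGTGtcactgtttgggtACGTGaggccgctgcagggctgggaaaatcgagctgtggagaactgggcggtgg
Bnip3 (chr1:203154913-203155212, minus strand): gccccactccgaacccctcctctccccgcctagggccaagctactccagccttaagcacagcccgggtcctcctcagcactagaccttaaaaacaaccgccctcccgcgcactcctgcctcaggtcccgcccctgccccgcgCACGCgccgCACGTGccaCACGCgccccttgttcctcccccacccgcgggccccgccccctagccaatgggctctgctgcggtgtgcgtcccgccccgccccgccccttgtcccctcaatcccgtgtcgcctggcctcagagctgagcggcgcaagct
Ldha (chr1:106507842-106508141, plus strand): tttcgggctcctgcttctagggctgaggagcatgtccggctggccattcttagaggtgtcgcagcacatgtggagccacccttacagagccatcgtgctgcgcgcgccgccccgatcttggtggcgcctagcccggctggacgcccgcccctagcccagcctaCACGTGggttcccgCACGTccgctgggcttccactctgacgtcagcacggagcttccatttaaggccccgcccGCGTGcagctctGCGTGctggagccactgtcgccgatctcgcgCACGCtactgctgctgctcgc
Slc2a1 (chr5:138002272-138002571, plus strand): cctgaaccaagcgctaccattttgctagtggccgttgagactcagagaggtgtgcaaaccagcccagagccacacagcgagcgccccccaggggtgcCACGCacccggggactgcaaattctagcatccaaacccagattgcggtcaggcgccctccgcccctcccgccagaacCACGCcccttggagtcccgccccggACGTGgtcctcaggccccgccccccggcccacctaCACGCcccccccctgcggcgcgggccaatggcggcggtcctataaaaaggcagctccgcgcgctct
Fbp1 (chr17:2213457-2213756, plus strand): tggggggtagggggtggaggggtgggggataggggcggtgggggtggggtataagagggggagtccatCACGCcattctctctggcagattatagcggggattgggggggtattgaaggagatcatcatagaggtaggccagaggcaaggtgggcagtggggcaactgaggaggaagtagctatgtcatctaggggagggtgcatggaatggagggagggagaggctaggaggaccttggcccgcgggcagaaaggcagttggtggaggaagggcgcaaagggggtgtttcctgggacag
Pfkfb4 (chr8:118525916-118526215, plus strand): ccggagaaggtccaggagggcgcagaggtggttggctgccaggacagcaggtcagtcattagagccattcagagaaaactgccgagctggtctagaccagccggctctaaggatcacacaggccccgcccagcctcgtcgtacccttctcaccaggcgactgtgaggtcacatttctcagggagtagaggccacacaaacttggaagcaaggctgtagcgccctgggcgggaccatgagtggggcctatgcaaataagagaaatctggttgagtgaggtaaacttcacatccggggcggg
The Ankrd37 window held 4 ACGTG and 1 GCGTG, the Bnip3 window 2 of each, the Ldha window 3 of each, the Slc2a1 window 1 ACGTG and 3 GCGTG, the Fbp1 window 0 and 1, and the Pfkfb4 window 0 of both. ACGTG stood in 50.0% of the 38 member promoters, against 25.2% of the 9841 promoters of tested genes and 19.3% of all 33469 rat promoters. GCGTG stood in 47.4% of the member promoters, 49.4% of those of tested genes and 29.7% of all promoters. The share with ACGTG was 45.5% of the 22 promoters of members higher in CNT-7 and 61.5% of the 13 promoters of members tested and not called, while the share with GCGTG was 59.1% and 30.8%, and that with either form 63.6% and 69.2%. A match of letters is a description of these windows and not a bound site. Sequence outside the windows was not searched, so a window without a match does not show that a gene lacks the element.

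Of the 3 genes for glucose transporters, Slc2a1 (ENSRNOG00000007284), which encodes GLUT1 of the plasma membrane, had the larger difference. Its level was 82.8, 98.7, 175 and 68.9 CPM in CNT-7 rats 3, 5, 10 and 11 and 36.1, 25.3, 20.5 and 28.5 CPM in CNT-T rats 1, 2, 12 and 13, the order used for all per-rat values below. The lowest CNT-7 rat was above the highest CNT-T rat, and rat 10 was far above the rest of its group. The means were 106 ± 47.4 CPM in CNT-7 and 27.6 ± 6.55 CPM in CNT-T (SD, n = 4 each; log2 fold change 1.95, SE 0.29, adjusted p = 0.0019 by edgeR). Slc2a6, which encodes the lysosomal hexose transporter GLUT6, gave 25.4, 29.3, 20.6 and 23.3 CPM in CNT-7 and 15.9, 20.9, 18.8 and 17.3 CPM in CNT-T. It passed the test with a smaller difference (log2 fold change 0.44, SE 0.12, adjusted p = 0.034 by edgeR), and CNT-7 rat 10, highest for Slc2a1, was its lowest CNT-7 rat and fell within the CNT-T range. Slc2a3, which encodes GLUT3, had 0 counts in all 8 rats. The log2 ratio of Slc2a1 to Slc2a6 within a rat was 1.56 to 3.09 in CNT-7 and 0.13 to 1.18 in CNT-T.

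Hexokinases trap glucose in the cell as glucose 6-phosphate, and of the 3 measured only Hk1 was called. Hk1 gave 152, 156, 157 and 165 CPM in CNT-7 and 105, 107, 101 and 103 CPM in CNT-T. The groups lay well apart with little spread in each (158 ± 5.13 CPM in CNT-7 and 104 ± 2.97 CPM in CNT-T, SD, n = 4; log2 fold change 0.60, SE 0.06, adjusted p = 0.00035 by edgeR). Hk2, the inducible hexokinase of many proliferating cells, gave 251, 260.1, 336 and 226 CPM and 251, 224, 218 and 223 CPM in the same order, and the ranges overlapped (log2 fold change 0.23, SE 0.12, adjusted p = 0.21 by edgeR). Hk3, the hexokinase of myeloid cells, gave 74.1, 87.9, 90.1 and 145 CPM and 75.4, 80.5, 67.9 and 85.96 CPM (log2 fold change 0.36, SE 0.19, adjusted p = 0.22 by edgeR). Rat 11 stood above the other CNT-7 rats, and without it the log2 fold change was 0.12. Hk2 without CNT-7 rat 11 was called at a log2 fold change of 0.30, and without CNT-7 rat 10 it was 0.10 and not called. The log2 ratio of Hk1 to Hk2 overlapped between the groups and differed by 0.39 on average.

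In the upper steps of glycolysis, 4 of 7 members were higher in CNT-7 (57.1%, against 13.9% of all tested genes). In all 4 the groups did not overlap, where 24.9% of all tested genes had groups that did not overlap. Phosphofructokinase commits the sugar to glycolysis, and 3 isozyme genes encode it. Pfkp, the platelet type, gave 24.3, 15.01, 19.4 and 17.6 CPM in CNT-7 and 5.87, 8.66, 8.18 and 8.700 CPM in CNT-T. Every CNT-7 rat was above every CNT-T rat (19.05 ± 3.91 CPM in CNT-7 and 7.85 ± 1.34 CPM in CNT-T, SD, n = 4; log2 fold change 1.28, SE 0.17, adjusted p = 0.0013 by edgeR). Pfkl, the liver type, gave 429, 555, 567 and 613 CPM and 546, 617, 524 and 473 CPM, with overlapping groups and nearly equal means (541 ± 78.6 CPM in CNT-7 and 540.1 ± 59.8 CPM in CNT-T, SD, n = 4; log2 fold change 0.00, SE 0.12, adjusted p = 0.99 by edgeR). Pfkm, the muscle type, was barely counted at 1.05, 0.905, 1.12 and 0.507 CPM and 0.7499, 0.296, 0.857 and 0.501 CPM (log2 fold change 0.58, SE 0.38, adjusted p = 0.33 by edgeR). The log2 ratio of Pfkp to Pfkl was -5.21 to -4.14 in CNT-7 and -6.54 to -5.76 in CNT-T, without overlap.

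Aldolase splits the doubly phosphorylated fructose into triose phosphates. Aldoc, the isozyme known from brain, gave 10.4, 10.3, 13.7 and 6.91 CPM in CNT-7 and 5.64, 3.46, 2.54 and 2.72 CPM in CNT-T. Its groups did not overlap, with rat 10 again highest (log2 fold change 1.53, SE 0.29, adjusted p = 0.0055 by edgeR). Aldoa, the widely expressed isozyme, gave 1098, 1258, 1346 and 1184 CPM and 1072, 986, 873 and 836 CPM. The groups were separate here too, but by a narrow gap between CNT-7 rat 3 and CNT-T rat 1 (log2 fold change 0.37, SE 0.10, adjusted p = 0.029 by edgeR). The log2 ratio of Aldoc to Aldoa was higher by 1.18 in CNT-7 on average. Tpi1, triose phosphate isomerase, gave 365, 360.1, 551 and 355 CPM and 258, 269, 223 and 245 CPM. The groups did not overlap, and 3 of the 4 CNT-7 rats lay close together with rat 10 well above them (log2 fold change 0.72, SE 0.15, adjusted p = 0.0081 by edgeR, and 0.54 without rat 10). Gpi, glucose 6-phosphate isomerase, was not called (log2 fold change 0.23, SE 0.10, adjusted p = 0.12), although DESeq2 called it and edgeR did so without CNT-7 rat 3, at a log2 fold change of 0.29.

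**Figure D2:**
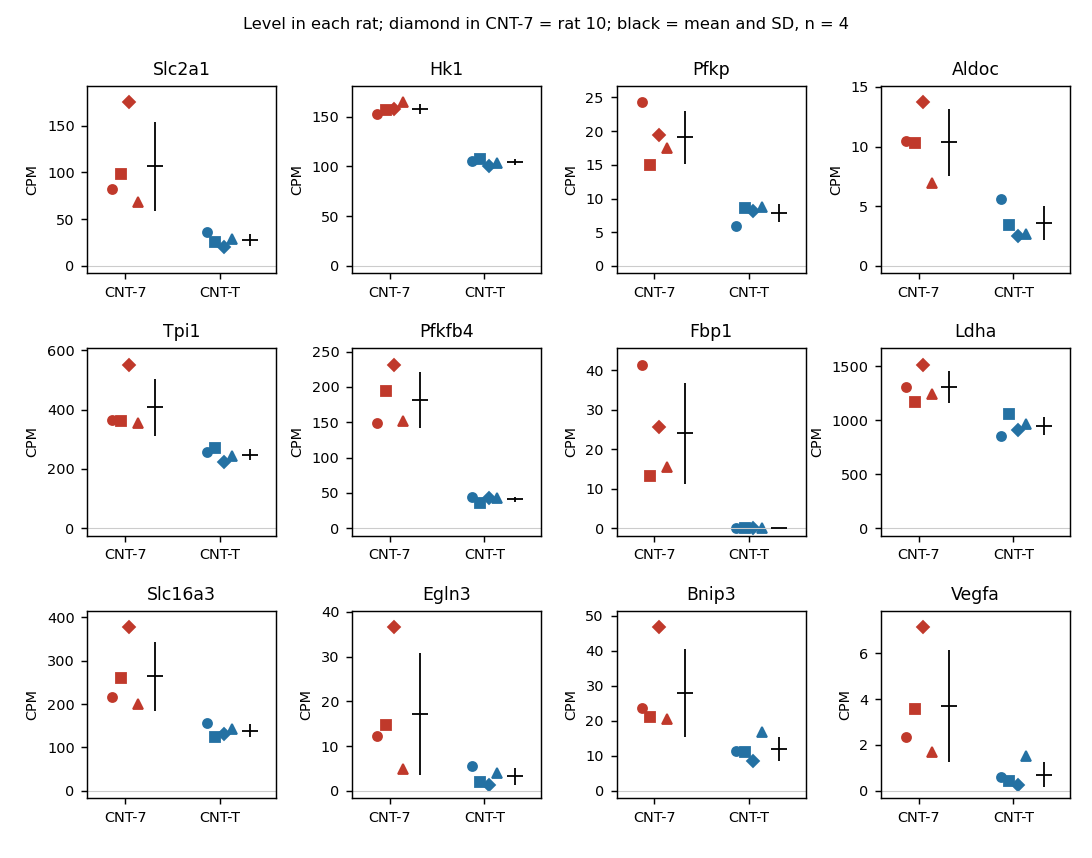
Level in CPM (y axis, starting near 0) of 12 members in each rat of the CNT-7 group (red) and the CNT-T group (blue), with the group mean and SD in black (n = 4). Pfkfb4 spans 149 to 232 CPM in CNT-7 and 35.6 to 43.9 CPM in CNT-T, and the diamond of CNT-7 rat 10 is the highest CNT-7 point for Slc2a1, Aldoc, Tpi1, Pfkfb4, Ldha, Slc16a3, Egln3, Bnip3 and Vegfa.

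The PFKFB enzymes make and remove fructose 2,6-bisphosphate, which activates phosphofructokinase and inhibits fructose 1,6-bisphosphatase. Pfkfb4 (ENSRNOG00000020656) had the smallest adjusted p of any member but Fbp1. It gave 149, 194, 232 and 151 CPM in CNT-7 and 43.9, 35.6, 42.5 and 42.7 CPM in CNT-T, and the lowest CNT-7 rat exceeded the highest CNT-T rat by a wide gap (181 ± 39.2 CPM in CNT-7 and 41.2 ± 3.77 CPM in CNT-T, SD, n = 4; log2 fold change 2.14, SE 0.15, adjusted p = 7.2e-05 by edgeR). Pfkfb3, the isozyme with the strongest kinase activity, gave 58.6, 74.04, 103 and 72.6 CPM and 66.6, 59.3, 51.1 and 79.9 CPM. These ranges overlapped (log2 fold change 0.26, SE 0.18, adjusted p = 0.35 by edgeR). The log2 ratio of Pfkfb4 to Pfkfb3 was 1.06 to 1.39 in the CNT-7 rats and -0.90 to -0.27 in the CNT-T rats, a difference in means of 1.87. Pfkfb2, the heart type, gave 14.3, 13.5, 14.1 and 13.1 CPM and 8.93, 10.5, 11.6 and 12.4 CPM. The groups were separate but close (log2 fold change 0.34, SE 0.11, adjusted p = 0.061 by edgeR), and the call was lost without CNT-7 rat 3, 5 or 10 or without CNT-T rat 1 or 2, at log2 fold changes of 0.26 to 0.35. Pfkfb1, the liver type, was low at 0.788, 0.938, 0.903 and 1.34 CPM and 0.782, 1.42, 1.65 and 1.61 CPM and was not called (log2 fold change -0.46, SE 0.30, adjusted p = 0.32 by edgeR).

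Fbp1 (ENSRNOG00000017597) encodes fructose 1,6-bisphosphatase, which runs the phosphofructokinase step backwards in gluconeogenesis. It was counted in every CNT-7 rat, at 41.5, 13.3, 25.8 and 15.6 CPM. The CNT-T rats had 0, 1, 1 and 0 counts, all at or under the floor of 3 counts. Taken against 3 counts in the CNT-T rat with the smallest library (0.107 CPM), the CNT-7 mean of 24.0 ± 12.8 CPM (SD, n = 4) was at least 224-fold higher, and edgeR's adjusted p was 5.3e-05. Rat 3, the highest, also had the highest summed level of 5 eosinophil markers (9.33 CPM). Of this sum Ccr3 gave 8.74 CPM, Il5ra 0.56 CPM and Prg2 0.03 CPM, and Epx and Prg3 were at 0. The other CNT-7 rats had 0.18 to 0.67 CPM of these markers and 13.3 to 25.8 CPM of Fbp1. All 5 markers were too low to test, and a link to Fbp1 was not tested. Fbp2, the muscle form, had 0 counts in all rats.

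In the lower steps, 2 of 5 tested members were higher in CNT-7 (40%, against 13.9% of all tested genes). Pgam1, phosphoglycerate mutase, was the larger of these (1227 ± 121 CPM in CNT-7 and 891 ± 73.3 CPM in CNT-T, SD, n = 4; log2 fold change 0.46, SE 0.10, adjusted p = 0.0083 by edgeR), and its groups did not overlap. Eno1, the common enolase, passed narrowly (log2 fold change 0.25, SE 0.10, adjusted p = 0.099 by edgeR). Its call was lost without any 1 of CNT-7 rats 3, 10 or 11 or CNT-T rats 1, 12 or 13, at log2 fold changes of 0.18 to 0.27, with a covariate for the range of rat numbers (adjusted p = 0.12 by edgeR) and without the filter on low counts (adjusted p = 0.13). Gapdh, glyceraldehyde 3-phosphate dehydrogenase, gave 272, 339.7, 282 and 352 CPM in CNT-7 and 303, 306, 247 and 273 CPM in CNT-T. Its ranges overlapped (log2 fold change 0.14, SE 0.11, adjusted p = 0.41 by edgeR). Pgk1, phosphoglycerate kinase, and Pkm, pyruvate kinase, were not called either, at log2 fold changes of 0.06 and 0.12, and that of Pgk1 turned to -0.0021 without CNT-7 rat 10 and to -0.0058 without CNT-T rat 1. Eno2, the neuronal enolase, was too low to test at 0.03 to 2.02 CPM in CNT-7 and 0.13 to 0.33 CPM in CNT-T. Gapdh, Eno1, Ldha, Pkm and other members have copies named after them in the RefSeq annotation that can share reads, so their levels are less certain.

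Summed over the 16 glycolytic enzyme genes from hexokinase to pyruvate kinase, the level was 7259 to 8826 CPM in CNT-7 and 6226 to 7101 CPM in CNT-T. The groups did not overlap, with means of 7861 ± 675 CPM and 6547 ± 416 CPM (SD, n = 4), and the sum took 0.731% to 0.863% of all counts in CNT-7 and 0.624% to 0.712% in CNT-T. This sum is dominated by the most counted genes and is given with no test.

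At the branch from pyruvate to lactate, 3 of 4 tested members were higher in CNT-7 (75%, against 13.9% of all tested genes). Ldha, the lactate dehydrogenase subunit that favours lactate, gave 1310.0, 1175, 1517 and 1246 CPM in CNT-7 and 858, 1058, 911 and 965 CPM in CNT-T. The lowest CNT-7 rat exceeded the highest CNT-T rat (1312 ± 148 CPM in CNT-7 and 948 ± 85.7 CPM in CNT-T, SD, n = 4; log2 fold change 0.47, SE 0.10, adjusted p = 0.01 by edgeR). Its partner subunit Ldhb stayed at or under 0.10 CPM in all rats. Pdk1, the kinase that closes the entry of pyruvate into the mitochondrion, gave 59.2 to 77.4 CPM in CNT-7 and 44.0 to 51.2 CPM in CNT-T (log2 fold change 0.46, SE 0.10, adjusted p = 0.0082 by edgeR). Slc16a3 encodes MCT4, the exporter of lactate, and gave 217, 260.2, 378 and 201 CPM and 157, 124, 132 and 142 CPM. The groups did not overlap (log2 fold change 0.93, SE 0.19, adjusted p = 0.0071 by edgeR). Slc16a1, which encodes the transporter MCT1, gave 156, 147, 174 and 164 CPM and 169, 162, 166 and 190.1 CPM and was not called (log2 fold change -0.10, SE 0.08, adjusted p = 0.44 by edgeR). The log2 ratio of Slc16a3 to Slc16a1 was 0.29 to 1.12 in CNT-7 and -0.43 to -0.10 in CNT-T.

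Of the 4 genes of oxygen sensing, 2 were called, both higher in CNT-7 (50%, against 13.9% of all tested genes). Egln3 encodes the prolyl hydroxylase PHD3, itself a target of the hypoxia-inducible factors. It gave 12.4, 14.7, 36.7 and 4.92 CPM in CNT-7 and 5.64, 1.98, 1.35 and 3.94 CPM in CNT-T. The ranges overlapped, since CNT-7 rat 11 was below CNT-T rat 1, and rat 10 stood far above the others (log2 fold change 2.41, SE 0.61, adjusted p = 0.021 by edgeR, and 1.73 without rat 10). Egln1, which encodes the main prolyl hydroxylase PHD2, gave 35.1, 37.9, 45.5 and 37.03 CPM and 29.8, 35.6, 29.2 and 33.01 CPM. It passed narrowly (log2 fold change 0.28, SE 0.10, adjusted p = 0.077 by edgeR) and was not called without CNT-7 rat 5 or 10 or without CNT-T rat 1, 12 or 13, at log2 fold changes of 0.20 to 0.30.

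The alpha subunits themselves were not called. Hif1a gave 308, 409, 573 and 358 CPM in CNT-7 and 309.8, 295, 309.9 and 426 CPM in CNT-T. The lowest CNT-7 rat was level with 2 of the CNT-T rats, and CNT-T rat 13 was above 3 of the CNT-7 rats (log2 fold change 0.30, SE 0.19, adjusted p = 0.32 by edgeR, and 0.10 without CNT-7 rat 10). Epas1, which encodes HIF-2 alpha, was low at 1.27 to 1.51 CPM in CNT-7 and 1.18 to 2.36 CPM in CNT-T (log2 fold change -0.30, SE 0.28, adjusted p = 0.5 by edgeR). These are transcript levels, and the alpha subunits are regulated mainly as proteins, which were not measured here.

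Of the 8 tested genes of the hypoxia response, 7 were higher in CNT-7 (87.5%, against 13.9% of all tested genes). In 5 of those the groups did not overlap, where 24.9% of all tested genes had groups that did not overlap. Vegfa, vascular endothelial growth factor A, was scarce at 2.37, 3.58, 7.15 and 1.701 CPM in CNT-7 and 0.619, 0.414, 0.264 and 1.504 CPM in CNT-T. The groups were separated only by the small gap between CNT-7 rat 11 and CNT-T rat 13 (log2 fold change 2.41, SE 0.59, adjusted p = 0.018 by edgeR). Its log2 fold change was 1.88 without CNT-7 rat 10 and 3.08 without CNT-T rat 13, and it was called in both cases. Bnip3, a receptor for mitophagy, gave 23.6, 21.1, 46.9 and 20.4 CPM and 11.3, 11.1, 8.604 and 16.8 CPM. Its CNT-7 rats were all above the CNT-T rats, and rat 10 stood far above the other 3 (log2 fold change 1.23, SE 0.30, adjusted p = 0.016 by edgeR, and 0.87 without rat 10). Ankrd37, an ankyrin repeat gene known as a target of hypoxia-inducible factor 1, gave 6.77, 8.07, 12.96 and 8.62 CPM and 4.43, 3.902, 3.76 and 4.51 CPM. This gene had a clear gap between groups (9.105 ± 2.69 CPM in CNT-7 and 4.15 ± 0.377 CPM in CNT-T, SD, n = 4; log2 fold change 1.13, SE 0.20, adjusted p = 0.0042 by edgeR).

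Ero1a, an oxidase that forms disulphide bonds in the endoplasmic reticulum, gave 158, 153, 224 and 133 CPM in CNT-7 and 115, 116, 107 and 126 CPM in CNT-T. The groups were separate by a small margin (log2 fold change 0.52, SE 0.15, adjusted p = 0.031 by edgeR). Ndrg1, a stress-responsive gene, gave 55.9, 32.4, 112 and 39.1 CPM and 26.6, 34.7, 28.1 and 31.4 CPM. CNT-7 rat 5 fell within the CNT-T range (log2 fold change 0.98, SE 0.34, adjusted p = 0.069 by edgeR). Its log2 fold change was 0.49 without CNT-7 rat 10, still called, and the call was lost without CNT-7 rat 3 or without any 1 CNT-T rat, at 0.93 to 1.06. P4ha1 and P4ha2 encode alpha subunits of collagen prolyl 4-hydroxylase. P4ha1 was called (log2 fold change 0.46, SE 0.17, adjusted p = 0.083 by edgeR), but not without CNT-7 rat 5 or 10 or CNT-T rat 2, 12 or 13 (0.28 to 0.50) nor with a covariate for the range of rat numbers (adjusted p = 0.105 by edgeR), and P4ha2 was not (log2 fold change 0.13, SE 0.19, adjusted p = 0.68 by edgeR, and -0.019 without CNT-7 rat 10). Mif, a secreted inhibitor of macrophage migration, was higher (log2 fold change 0.42, SE 0.14, adjusted p = 0.056 by edgeR), was 0.27 and still called without CNT-7 rat 10, and was not called without CNT-T rat 12 or 13, at 0.41 and 0.36. Adm, adrenomedullin, was too low to test at 0.15 to 1.66 CPM in CNT-7 and 0 to 0.72 CPM in CNT-T.

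The members varied among the CNT-7 rats in a shared way. CNT-7 rat 10 was the highest of its group for 28 of the 38 tested members (73.7%), where it was the highest for 30.6% of all tested genes. It led in 17 of 26 tested genes of glucose metabolism and in 11 of 12 tested genes of oxygen sensing and hypoxia response, the exception being Epas1. In CNT-T, rat 2 was most often the highest, for 16 members (42.1%, against 25.1% of all tested genes). Rat 12 was most often the lowest, also for 16 of the 38, and was the lowest for 2296 of the 12124 tested genes. Relative to the mean of all 8 rats on the log2 scale, the median over the tested members was 0.48 in CNT-7 rat 10, 0.13 to 0.18 in the other CNT-7 rats and -0.30 to -0.17 in the CNT-T rats. For the 12 hypoxia genes the same median was 0.69 in rat 10, 0.08, 0.20 and -0.02 in CNT-7 rats 3, 5 and 11, and -0.40 to -0.22 in the CNT-T rats. Rats 3, 5 and 11 together still gave 20 members called higher, with Pfkfb2, Eno1, Egln1 and P4ha1 no longer called. These counts describe the rats, and members of a pathway are not independent of each other.

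**Figure D3:**
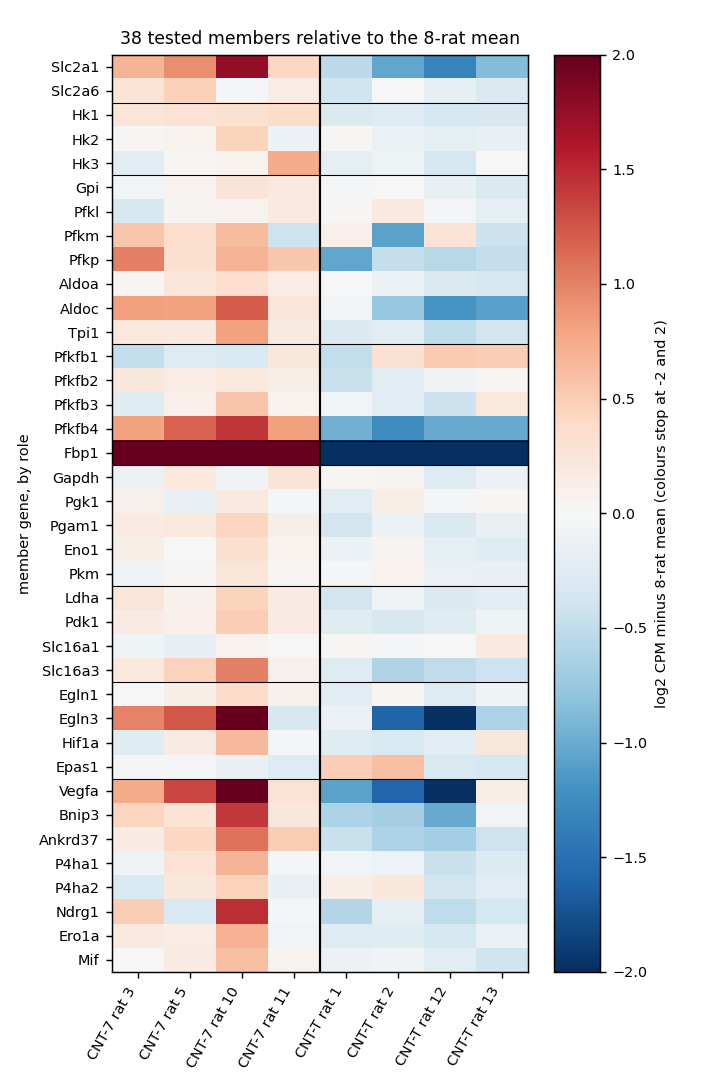
Log2 CPM of each tested member in each rat, minus the mean of the 8 rats (colour, from blue below to red above, limited at -2 and 2), with members in rows by role and rats in columns. The column of CNT-7 rat 10 is the darkest red, with a median of 0.48, and Fbp1 reaches the colour limits in every rat.

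**Figure D4:**
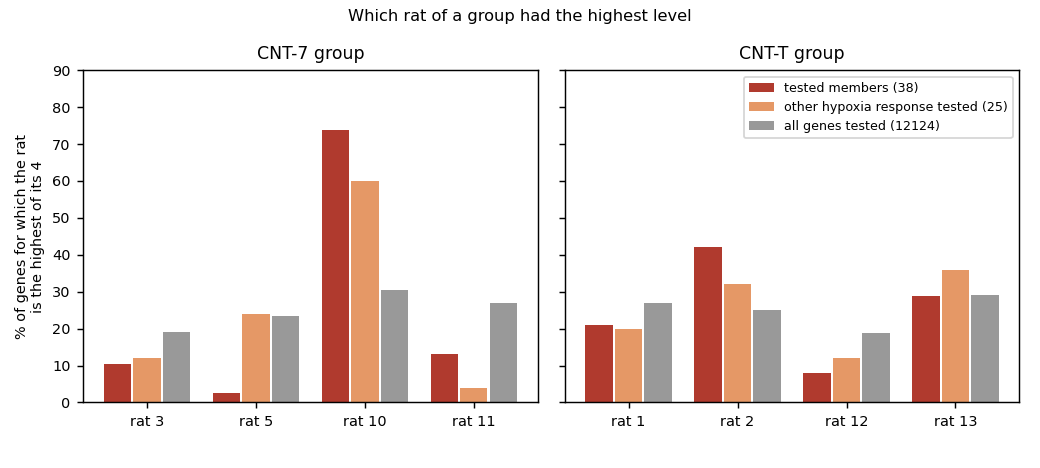
Percent of genes (y axis) for which each rat (x axis) had the highest level of the 4 rats in its group, for the tested members, the other tested hypoxia response genes and all tested genes. CNT-7 rat 10 was highest for 73.7% of the members, 60% of the other hypoxia response genes and 30.6% of all genes.

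Other genes of the same pathways were taken from lists built on knowledge of the pathways, also with earlier results known. Of 97 symbols, 93 were in the table and 76 were tested. In CNT-7, 17 of them passed as higher and 6 as lower, which is 30.3% called in either direction and near the 27.9% of all tested genes. The share higher was 22.4% and the share lower 7.89%, against 13.9% and 14.0% of all tested genes. Among 8 other glycolysis genes 0 were higher by edgeR, by DESeq2 or at an unadjusted p under 0.05, and 2 were lower. These were Gpd1, the cytosolic glycerol 3-phosphate dehydrogenase, at 4.01, 5.13, 2.35 and 6.55 CPM in CNT-7 and 7.01, 12.03, 7.32 and 10.3 CPM in CNT-T (log2 fold change -1.02, SE 0.30, adjusted p = 0.037 by edgeR), and Gpd2, its mitochondrial partner (log2 fold change -0.22). Among 12 genes of gluconeogenesis and glycogen metabolism, the glycogen synthase gene Gys1 was higher (0.71 on the log2 scale) and Pck2, the mitochondrial form of the gluconeogenic enzyme phosphoenolpyruvate carboxykinase, was lower (-0.57). Each was 8.33% of the 12, below the 13.9% and 14.0% of all tested genes. On the same list, G6pc had 0 counts in every rat and Pck1 was at most 0.099 CPM, so neither was tested. Among 7 genes of the pentose phosphate pathway 1 was lower, the ribose 5-phosphate isomerase gene Rpia (-0.45), and 0 were higher by edgeR, by DESeq2 or at an unadjusted p under 0.05. Gpd2, Gys1, Pck2, G6pc, Pck1 and Rpia, and Pdk2, Egln2 and Siah2 in the next paragraph, were chosen after their values were seen.

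Around pyruvate and lactate, 2 of 15 tested genes were higher (13.3%, near the 13.9% of all tested genes) and 1 was lower. Emb encodes embigin, a partner protein of monocarboxylate transporters, and gave 22.5, 14.9, 47.2 and 20.5 CPM in CNT-7 and 6.68, 7.36, 3.49 and 12.5 CPM in CNT-T. Its groups did not overlap and rat 10 was the highest (log2 fold change 1.81, SE 0.42, adjusted p = 0.015 by edgeR). Slc16a7, which encodes the high-affinity transporter MCT2, gave 14.6, 14.9, 10.8 and 14.99 CPM and 36.7, 28.5, 40.02 and 40.2 CPM, with every CNT-7 rat below every CNT-T rat (log2 fold change -1.39, SE 0.14, adjusted p = 0.00035 by edgeR). Of these transporters, Slc16a3 was higher, Slc16a7 was lower and Slc16a1 was not called. Pdk2, another kinase of pyruvate dehydrogenase, was higher (0.51 on the log2 scale). Among 9 other regulators of the hypoxia-inducible factors, the prolyl hydroxylase gene Egln2 was narrowly higher by edgeR (0.20, adjusted p = 0.094) but not called by DESeq2, and the ubiquitin ligase gene Siah2 was lower (-0.41). Each made up 11.1% of the 9, below the 13.9% higher and 14.0% lower of all tested genes.

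Of 25 other tested hypoxia response genes, 13 were higher in CNT-7 (52%, against 13.9% of all tested genes). None, 0, were lower by edgeR (against 14.0% of all tested genes), by DESeq2 or at an unadjusted p under 0.05. The median log2 fold change was 0.32. Ddit4, an inhibitor of mTORC1 signalling, gave 3.32, 3.75, 4.51 and 3.29 CPM in CNT-7 and 1.34, 0.384, 0.725 and 0.931 CPM in CNT-T, without overlap (log2 fold change 2.14, SE 0.33, adjusted p = 0.0023 by edgeR). Car12, a membrane carbonic anhydrase, was scarce at 1.68, 1.44, 1.16 and 0.615 CPM and 0.0978, 0.325, 0.264 and 0.107 CPM (log2 fold change 2.58, SE 0.46, adjusted p = 0.0044 by edgeR). Edn1, endothelin 1, was close to the floor at 1.45, 1.44, 0.361 and 1.19 CPM in CNT-7 and had at most 3 counts in any CNT-T rat, so its CNT-7 mean was at least 10.3-fold higher (adjusted p = 0.003 by edgeR). Vldlr, the very low density lipoprotein receptor, gave 2.398, 1.47, 3.97 and 0.941 CPM and 0.326, 0.207, 0.297 and 1.36 CPM with overlap (log2 fold change 2.02, SE 0.64, adjusted p = 0.051 by edgeR). Rat 10 was the highest CNT-7 rat for Ddit4 and Vldlr and the lowest for Edn1. Over the 25 genes it was the highest in 15.

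**Figure D5:**
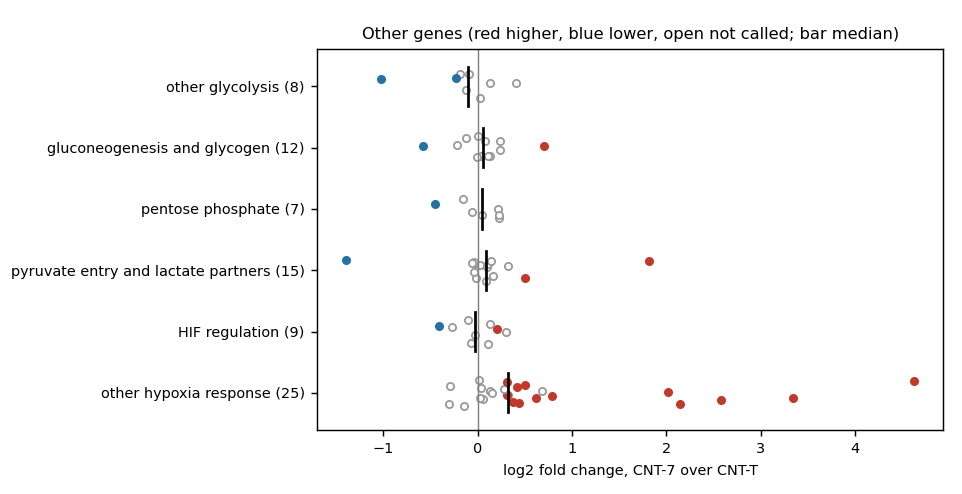
Log2 fold change, CNT-7 against CNT-T (x axis), for the tested pathway genes outside the set, by list, with the number tested in brackets, called genes in red (higher) or blue (lower) and list medians as bars. The 25 other hypoxia response genes have a median of 0.32, with 13 red points and 0 blue.

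The sorted cells carried all 7 macrophage markers examined. Their summed level was 15086 to 22237 CPM in CNT-7 and 23593 to 33821 CPM in CNT-T, with 1 marker (Cd14) higher and 4 lower in CNT-7. Most of that sum was Lyz2 (means of 17596 CPM in CNT-7 and 24362 CPM in CNT-T). Lyz2 itself narrowly missed a call (log2 fold change -0.47, adjusted p = 0.1002 by edgeR). In a bulk sample, fewer cells of a type and less RNA per cell cannot be told apart. All 6 markers of proliferating cells were lower in CNT-7 (summed 205 to 437 CPM against 768 to 859 CPM). So were 3 of 4 matched monocyte markers (summed 2617 to 3247 CPM against 3553 to 3590 CPM). Ccr2, also on the monocyte list, was not matched. Markers of other cells were counted at low levels, given as the range in CNT-7 and then in CNT-T. Summed T cell markers were 1.95 to 6.47 CPM and 0.21 to 0.79 CPM, B cell markers 0.16 to 2.65 CPM and 0.15 to 0.46 CPM, mast cell markers 0.56 to 1.56 CPM and 0.03 to 2.14 CPM, dendritic cell markers 5.61 to 11.6 CPM and 4.37 to 8.38 CPM, fibroblast markers 0.40 to 1.24 CPM and 0 to 0.36 CPM. Among these, Cd2 of the T cell list was called higher in CNT-7 (log2 fold change 3.48). So were Ccr7 (3.796) and Clec9a (1.76) of the dendritic cell list. In each the groups did not overlap, and the mean was at most 2.22 CPM. Zbtb46, the dendritic cell marker with the most counts, was not called (log2 fold change -0.22), and Flt3 and Xcr1 were too low to test. Cd3e, Cd3d and Cd3g were also too low to test. In the CNT-7 group, Cd2 was highest in rat 10 and these Cd3 genes in rat 5. Mesothelial markers summed to 0 to 0.30 CPM and 0 to 0.13 CPM with Upk3b and Wt1 at 0. Neutrophil markers summed to 31.7 to 61.5 CPM and 24.9 to 68.0 CPM with Mpo at 0. Most of the neutrophil sum was Csf3r (29.1 to 57.0 CPM and 18.1 to 57.4 CPM), which was not called. The neutrophil marker S100a8 was scarce, with means of 2.24 CPM in CNT-7 and 6.17 CPM in CNT-T. It was lower in CNT-7, and its groups did not overlap (log2 fold change -1.46, SE 0.35, adjusted p = 0.016 by edgeR). The other tested neutrophil markers were not called and went in both directions. Their log2 fold changes were 1.23 for S100a9, 0.39 for Csf3r and -0.68 for Elane. Rat 10 had the lowest sum of the proliferation markers in CNT-7. The part of these shifts in the differences of the members was not tested.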

How the data were processed

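Peritoneal macrophages were measured by RNA-seq in 8 libraries (4 per group). The sample titles give a group and a number, which was taken as the number of a rat. The study's methods describe no pooling, so each library was taken as 1 animal. The authors prepared stranded mRNA libraries and ran the ARMOR workflow, with Salmon (version not given in the sources used here) against Ensembl transcripts of Rnor_6.0 and import by tximeta. The deposited table holds their estimated counts per gene, without normalization, for 23487 genes. It has no other per-sample columns.

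The estimated counts were rounded, filtered with edgeR 4.0.16 (filterByExpr, minimum count 10, minimum total 15) in R 4.3.3, scaled by TMM and tested with the quasi-likelihood test, CNT-7 against CNT-T, with Benjamini-Hochberg adjustment over the 12124 genes kept and calls at an adjusted p under 0.10, the level the study used. The SE is the log2 fold change divided by the root of F. CPM were computed with TMM library sizes, and floors from 3 counts per library, which cover counting error only. Leaving out each rat, DESeq2 1.42.0, upper-quartile scaling, other filters and thresholds and a covariate for the range of rat numbers were the alternatives. Scripts were tested on simulated data.

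The members and the lists were chosen with earlier results of these data known. Every rat's value is given for members called with an absolute log2 fold change of at least 0.5, their family partners and Slc2a1, Gapdh, Ldha, Hif1a and Vegfa. Of the other genes, at most 5 called with an absolute log2 fold change of at least 1 were named per list by smallest adjusted p, and 1 gene that this rule names is not reported here. Transcript lengths were not used here, so isozymes were compared as log2 ratios within a rat, whose differences between groups do not depend on length. Promoters came from RefSeq (GRCr8) by symbol, a later build than that of the counts. Of the listed symbols, Hkdc1, G6pc1, Pgd and Nos2 were not matched, nor were the cell type markers Ccr2, Trac and Cd79a.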

Additional observations from a re-analysis of the deposited data

Results flagged for a closer look

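Within the 2 groups, each tested member was examined for a rat that stood apart from the other 3 of its group, by Dixon's ratio of the gap to the nearest rat over the whole range against its critical value for 4 samples. Of 76 groups examined 4 passed, where 3.8 are expected by chance, and 3 of the 4 were CNT-7 rat 10. Tpi1 was 551 CPM in CNT-7 rat 10, where the rest of that group had 355 to 365 CPM (ratio 0.9496). Bnip3 was 46.9 CPM in that rat and 20.4 to 23.6 CPM in the others (ratio 0.881), and Pdk1 was 77.4 CPM against 59.2 to 61.6 CPM (ratio 0.870). Hif1a was 426 CPM in CNT-T rat 13, where the rest of that group had 295 to 310 CPM (ratio 0.885). The cause of these gaps was not tested.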

How the results depend on the processing

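No paired analysis was possible because no rat number, as taken from the sample titles, occurs in both groups. Members called higher, 24, numbered 25 with DESeq2, 24 with upper-quartile scaling, 23 without a filter on low counts, 22 with at least 10 counts in every rat (a filter that left Fbp1 and Vegfa untested), 22 with the covariate, 18 at an adjusted p under 0.05 and 19 to 24 with 1 rat left out. Members called lower stayed at 0 in all of these. Of the 24, 18 kept the call in every alternative with the same threshold that tested them, and Pfkfb2, Eno1, Egln1, P4ha1, Ndrg1 and Mif lost it in at least 1. Requiring at least a 2-fold difference left 9 members, 6 other pathway genes higher and 2 lower, and 552 higher and 454 lower among all genes. At an adjusted p under 0.05, 11 other pathway genes were higher. With 1 rat left out, other pathway genes numbered 12 to 21 higher and 3 to 8 lower (3 without CNT-T rat 2), and all genes 1261 to 1743 higher and 1305 to 1772 lower. The summed glycolytic enzymes were 7539 to 8062 CPM in CNT-7 and 6363 to 6655 CPM in CNT-T. Of the log2 fold changes of members, 10 of the alternative values changed sign, all within 0.064 of 0. Pfkl was -0.0023 with DESeq2 and -0.0017 without the filter, and -0.064 to 0.099 with 1 rat left out. With 1 rat left out, P4ha2 was -0.019 (without CNT-7 rat 10) to 0.24, and Pgk1 was -0.0058 (without CNT-T rat 1) to 0.11, with -0.0021 without CNT-7 rat 10. The cause of these changes was not tested. With 4 rats per group, differences near the spread between rats, as in Hif1a, Hk3 or Pfkm, could not be separated from it, and below 0.0887 to 0.109 CPM a level could not be told from 0.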
